A study of Mus musculus with 16 samples.

Results

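The loci described are those of the odorant and pheromone receptor genes of the mouse, in β cells, the insulin-producing cells of the pancreatic islet. Genes were taken by name from the deposited transcript table: olfactory receptors (Olfr), vomeronasal type 1 receptors (Vmn1r) and vomeronasal type 2 receptors (Vmn2r). Of 1458 genes with such names, 36 had more than 1 genome position and 9 lay off the autosomes. The remaining 1413 receptor genes, of 22869 genes in all, were analysed and comprised 1114 Olfr, 181 Vmn1r and 118 Vmn2r genes. Of these, 30 carried a pseudogene name. Old and young β cells were compared in RNA, histone marks and DNA methylation. RNA came from MIP-GFP/Bl6 mice, whose green fluorescent protein is driven by the insulin promoter and allows live β cells to be sorted from islets. The old RNA pools were 15, 16 and 17 months old (3 libraries) and the young pools 4 to 6 weeks old (2 libraries), with 5 to 10 mice in a pool. Chromatin and bisulfite libraries came from sorted β cells labelled C57Bl6, from animals of 16 to 18 months (old) and of 4 to 6 weeks (young), with 1 library per mark and age. No treatment or further allele was labelled in either age. The design text differs from the labels in part: it puts the old bisulfite pool at a later age, and it names 2 old H3K27me3 replicas and 3 young RNA replicas.

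Olfactory and vomeronasal receptors are G protein-coupled receptors of sensory neurons in the nose. Olfr proteins bind odorants in the main olfactory epithelium, and V1R and V2R proteins detect pheromones and other chemical cues in the vomeronasal organ. An olfactory neuron transcribes a single receptor allele, and the genes lie in large tandem clusters. Inside the olfactory epithelium the silent receptor genes are packed in heterochromatin marked by H3K9me3 and H4K20me3, which were not measured here. H3K27me3, which was measured, is deposited by Polycomb repressive complex 2 and is typical of CpG-rich promoters of silent developmental genes.

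Olfr and Vmn1r genes were short, with median spans of 945 and 924 bp, and Vmn2r genes spanned a median of 23658 bp. The length was a multiple of 3 for 80.3% of the receptor genes and for 33.9% of the other genes, and by family for 83.5% of Olfr, 89.5% of Vmn1r and 35.6% of Vmn2r genes. Most Olfr and Vmn1r models therefore held little beside coding sequence, with the start codon as their start, whereas Vmn2r models resembled other genes in this respect. "Promoter" therefore means the window from 1000 bp before to 500 bp after the annotated start (build mm9). Starts within 500 kb of the next one were joined into 75 clusters, of which 33 held at least 10 receptor genes and together 1259 of the 1413. The largest were the cluster on chromosome 2 with 223 Olfr genes (chr2:85171124-90241831), that on chromosome 7 with 124 Olfr genes around the β-globin genes (chr7:109625287-112517831) and an all-Olfr cluster on chromosome 9 (chr9:37518933-39995679). Neighbouring receptors share a locus and were not treated as independent. Of the 1413, 9 shared their exact position with another receptor gene and 32 overlapped another gene.

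The sequences before the starts were poor in CpG, the dinucleotide whose methylation was measured. A single RefSeq promoter sequence of 300 bases (250 before to 50 after the start, build GRCm38.p6) was matched by symbol for 1178 receptor genes, and 1054 of these had the same gene length in both annotations. The median receptor promoter held 1 CpG, against 7 in all 21717 promoters with 1 entry. No CpG was present in 32.9% of receptor promoters and in 6.01% of all promoters. The examples that follow were chosen because the methylation, H3K27me3 or RNA results turn on them, and each CpG is in capitals. Olfr95 had the lowest promoter methylation, Olfr97 the largest loss among those with at least 5 CpGs, Olfr12 H3K27me3 in both ages with a loss and Olfr267 a large gain of methylation. Olfr15 is a receptor described in mouse β cells, and Olfr373 was among the receptors with less RNA in old cells. On GRCm38.p6 the windows were Olfr95 at chr17:37211802-37212101 (minus strand), Olfr97 at chr17:37232319-37232618 (minus strand), Olfr12 at chr1:92619631-92619930 (plus strand), Olfr267 at chr4:58785671-58785970 (minus strand), Olfr15 at chr16:3838725-3839024 (plus strand) and Olfr373 at chr8:72099512-72099811 (plus strand).
Olfr95: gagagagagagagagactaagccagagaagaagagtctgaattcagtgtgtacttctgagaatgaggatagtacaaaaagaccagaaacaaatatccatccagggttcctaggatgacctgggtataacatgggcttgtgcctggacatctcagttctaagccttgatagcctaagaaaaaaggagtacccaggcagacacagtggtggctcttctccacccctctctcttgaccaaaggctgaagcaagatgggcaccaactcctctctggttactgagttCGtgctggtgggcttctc
Olfr97: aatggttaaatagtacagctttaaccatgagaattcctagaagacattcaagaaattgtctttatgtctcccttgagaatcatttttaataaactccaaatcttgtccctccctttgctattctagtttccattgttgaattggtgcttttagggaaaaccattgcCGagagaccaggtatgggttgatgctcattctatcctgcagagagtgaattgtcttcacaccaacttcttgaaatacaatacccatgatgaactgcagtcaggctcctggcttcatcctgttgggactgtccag
Olfr12: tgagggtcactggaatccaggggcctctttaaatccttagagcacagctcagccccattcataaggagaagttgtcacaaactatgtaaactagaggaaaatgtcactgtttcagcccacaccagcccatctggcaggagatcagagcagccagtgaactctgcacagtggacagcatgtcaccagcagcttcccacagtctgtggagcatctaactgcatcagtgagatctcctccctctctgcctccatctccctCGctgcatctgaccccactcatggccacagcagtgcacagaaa
Olfr267: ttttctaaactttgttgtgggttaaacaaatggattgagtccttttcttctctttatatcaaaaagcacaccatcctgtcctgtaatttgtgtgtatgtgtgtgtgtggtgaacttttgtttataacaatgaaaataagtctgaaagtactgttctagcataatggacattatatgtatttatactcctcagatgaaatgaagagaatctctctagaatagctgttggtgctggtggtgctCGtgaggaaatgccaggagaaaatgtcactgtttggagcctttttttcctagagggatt
Olfr15: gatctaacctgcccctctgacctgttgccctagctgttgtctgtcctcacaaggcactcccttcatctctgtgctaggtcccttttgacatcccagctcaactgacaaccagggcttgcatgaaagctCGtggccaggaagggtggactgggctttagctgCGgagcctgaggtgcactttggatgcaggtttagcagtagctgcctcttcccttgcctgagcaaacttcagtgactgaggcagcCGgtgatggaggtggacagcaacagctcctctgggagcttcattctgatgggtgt
Olfr373: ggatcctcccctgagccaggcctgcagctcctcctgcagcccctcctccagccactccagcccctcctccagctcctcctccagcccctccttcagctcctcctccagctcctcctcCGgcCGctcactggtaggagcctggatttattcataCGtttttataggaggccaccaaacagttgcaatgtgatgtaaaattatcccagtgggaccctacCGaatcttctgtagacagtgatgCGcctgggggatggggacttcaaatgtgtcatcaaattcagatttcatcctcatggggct

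Olfr95, Olfr97, Olfr12 and Olfr267 each held 1 CpG in these 300 bases, Olfr15 held 3 and Olfr373 held 5. The median GC content was 35.7% in receptor promoters and 52.7% in all promoters. Receptor promoters were searched on both strands for 3 short motifs. TAATTA, the core of homeodomain sites such as those bound by Lhx2, occurred in 204 of 1178 (17.3%), against 5.4% of all promoters. TATAAA occurred in 462 (39.2%), against 14.9% of all promoters. The palindromic site of Ebf factors occurred in 5 (0.424%), against 0.907% of all promoters. Overlaps between TAATTA and TATAAA were not removed, and a match describes letters only. The motif shares were not matched for GC content. Most Olfr and Vmn1r models begin at the start codon, so the CpG, GC and motif values compare unlike positions.

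H3K27me3 lay over fewer receptor promoters in old than in young β cells, while over the other genes it lay over more promoters in old cells. In old cells 225 of 1413 receptor promoters (15.9%) overlapped a deposited region, against a background of 39.6% of all 21529 autosomal genes. In young cells 323 (22.9%) did, against a background of 27.9%. Both ages shared 150 receptor promoters, 75 (5.31%) were marked in old cells only against 16.6% of all genes, and 173 (12.2%) in young cells only against 4.91% of all genes. The remaining 1015 were unmarked in both lists. Olfr promoters were marked in 17.1% in old and 24.8% in young cells, Vmn1r promoters in 14.4% and 18.2%, and Vmn2r promoters in 6.78% and 11.9%, so that each family had the higher share in young cells. With 1 list per age there was no replicate to test this difference. Whether the old list joins the 2 old replicas that the design text names is not given, so the old and young lists may rest on different numbers of libraries. The lists differed in size, with 34391 autosomal regions over 589.6 Mb in old and 29476 over 434.5 Mb in young cells.

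Sets of other genes chosen for few CpGs or for silence had higher shares. Among the other genes with as few CpGs listed (2 to 16), 40.5% of 3465 were marked in old and 28.1% in young cells. Other genes without any RNA count were marked in 58.0% in old and 47.1% in young cells, and the 477 with both properties in 39.6% and 31.4%. Each of these sets had the higher share in old cells, opposite to the receptors. Of 15 trace amine-associated receptors (Taar), another family of olfactory receptors, none was marked in either age, and of 38 taste receptors 12 were marked in old and 6 in young cells.

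**Figure D1:**
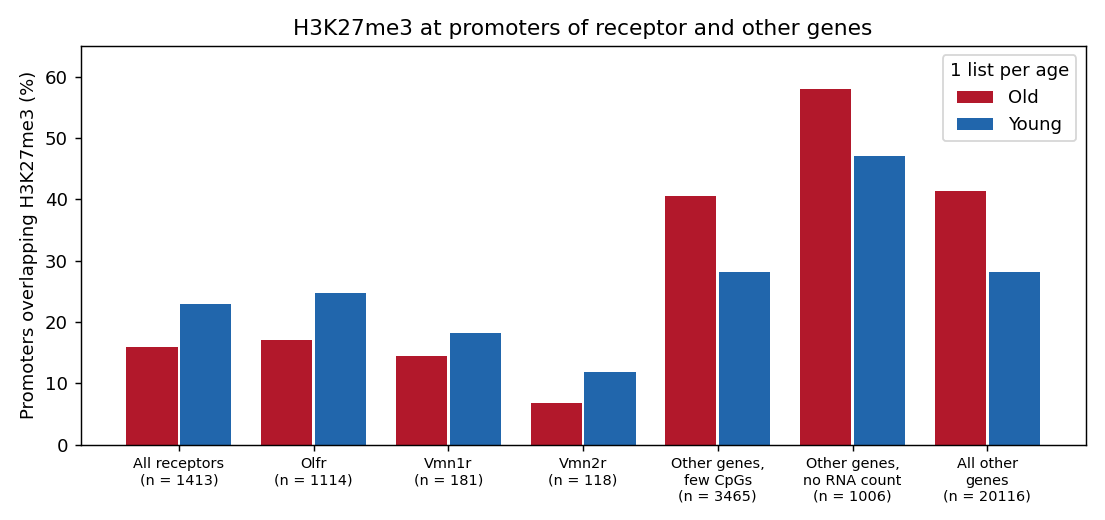
Share of promoters (%) overlapping a deposited H3K27me3 region in old (red) and young (blue) cells, 1 list per age, for all receptor genes, each family and 3 sets of other genes. The receptor sets are higher in young cells (15.9% in old and 22.9% in young for all receptors), and the sets of other genes are higher in old cells.

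The order of the ages depended on what was counted. Over gene spans the marked receptors again numbered fewer in old than in young cells, 236 against 323. Over the whole span of the 75 clusters, 53.39 Mb in all, the marked length was 12.5% in old and 11.7% in young cells, in 671 and 576 regions. Among the 33 clusters of at least 10 receptors, 18 had the larger marked length in old and 14 in young cells. Fewer receptor promoters and genes were thus marked in old cells, while the marked length of the clusters was slightly larger. Over all autosomes the old list was also longer, at 589.6 Mb against 434.5 Mb in young cells. The larger marked length in old cells was therefore not particular to receptor clusters.

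Clusters differed widely in H3K27me3. A marked receptor was present in 48 clusters in old and 58 in young cells. More receptors were marked in old than in young cells in 12 clusters, fewer in 39, and as many in 12 with any mark. The 223-gene cluster of chromosome 2 had 1 marked promoter in old and 8 in young cells, and the chromosome 9 cluster had 1 and 5. The cluster around the β-globin genes had 45 in old and 50 in young cells. The widest gap was in a cluster of 31 Olfr genes on chromosome 11 (chr11:73164361-74179111), with 2 marked promoters in old and 23 in young cells. Marked length there was 2.28% of the cluster in old and 37.4% in young cells. Without this cluster the totals were 223 in old and 300 in young cells. The opposite gap was largest in a cluster of 11 Olfr and 36 Vmn1r genes on chromosome 13 (chr13:21164218-23342192), with 22 in old and 10 in young cells. Some clusters were fully marked or empty. All 8 Olfr genes of a chromosome 1 cluster and all 7 of a chromosome 4 cluster were marked in both ages, and none of 19 Vmn1r genes of a chromosome 7 cluster was marked in either.

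**Figure D2:**
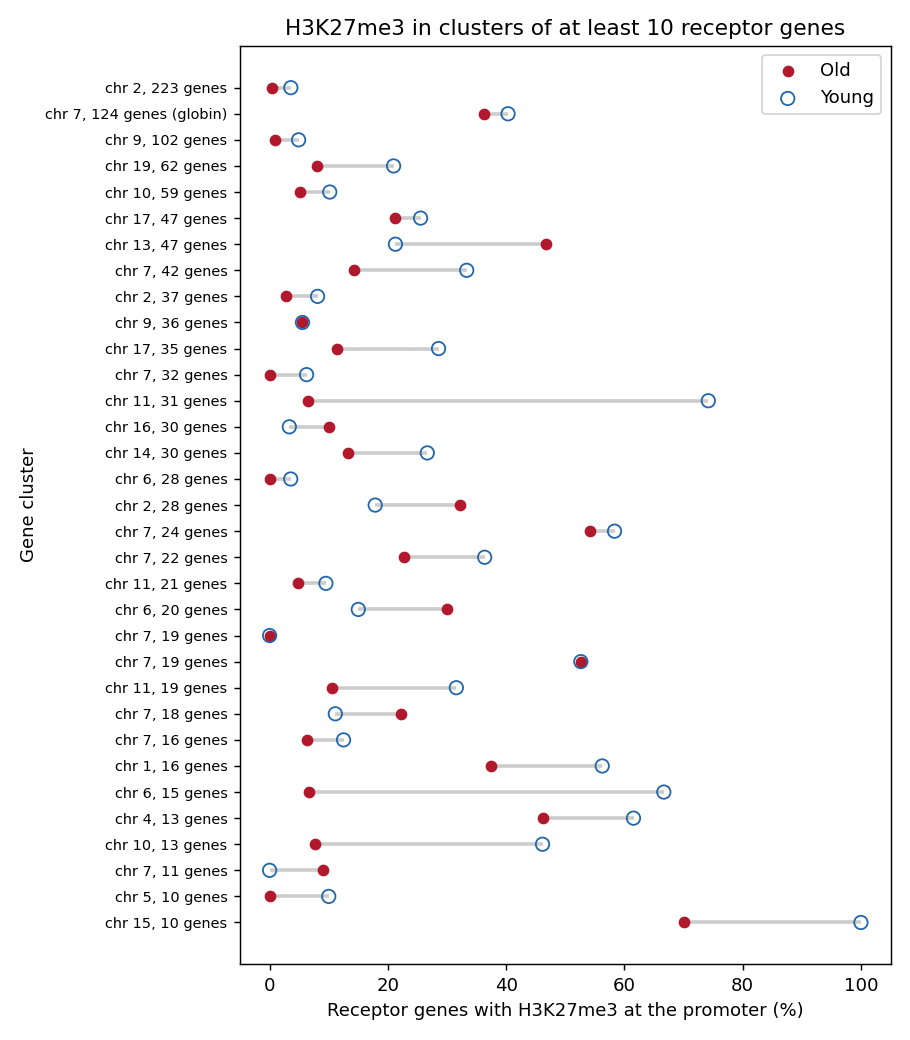
Share of receptor genes (%) with H3K27me3 at the promoter in old (filled red) and young (open blue) cells in each of the 33 clusters of at least 10 receptors, ordered by size. Most pairs lie with the young point to the right, the 31-gene chromosome 11 cluster shows the widest gap (2 marked in old, 23 in young), and the 47-gene chromosome 13 cluster runs the other way (22 in old, 10 in young).

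The marked share was higher in small clusters, near other genes and with more CpGs. In clusters of up to 9 receptors 27.9% were marked in old and 38.3% in young cells, in clusters of 10 to 49 18.4% and 26.4%, and in clusters of 50 or more 9.65% and 14.4%. Within 20 kb of a gene that is no receptor 40.8% of 120 receptors were marked in old and 51.7% in young cells. Beyond 500 kb of such a gene, 2.19% of 183 were marked in old and 5.46% in young cells. Receptors with at most 2 measured CpGs were marked in 3.89% in old and 11.3% in young cells, and those with at least 15 in 61.4% and 58.6%. In that last class the share was higher in old cells. The relation with CpGs was also seen in the RefSeq windows, which the measured coverage does not affect. With no CpG in the 300 bases 25.8% of 387 receptors were marked in at least 1 age, and with 6 or more 64.7% of 17 were.

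Among receptors marked in both ages, the best deposited scores in old cells lay in 4 regions, of which 3 covered several genes. Olfr545 and Olfr547, at the edge of the β-globin cluster, shared a 42000-bp region in old cells (chr7:109644001-109686000), and in young cells a region of 28000 bp lay over Olfr545 and another of 13000 bp over Olfr547. Olfr12, Olfr1410, Olfr1411 and Olfr1412 lay in 1 region of 310000 bp in old cells (chr1:94479001-94789000) and in 1 of 54000 bp in young cells (chr1:94478001-94532000). Olfr1414, in the same cluster, lay in a region of its own of 21000 bp in old and 46000 bp in young cells. Olfr522, Olfr523 and Olfr524 lay under 86000 bp of mark in old cells (chr7:147334001-147420000). Each of these genes had at most 2 counts of RNA in every old library, except Olfr1412 with 15 counts in the first. In the shallower young library Olfr1412 had 171 counts, Olfr1414 17, Olfr12 9, Olfr1410 6 and the others 0 or 1. None had a count in the deeper one. Of all receptors marked in both ages 66.0% had a count in some library. The share was 54.7% for those marked in old cells only, 60.1% in young cells only and 55.5% in neither. Of those marked in old cells only, the best scored were Vmn1r90, Olfr1394, Vmn2r-ps54, Olfr763 and Olfr13, in regions of 7000 to 20000 bp. Of those marked in young cells only, the best scored were Olfr223, Olfr464, Olfr397, Olfr1390 and Olfr282, in regions of 10000 to 62000 bp, and 4 of these 5 lay on chromosome 11. Olfr15 was marked in old cells only, Olfr544 and Olfr558 in both ages, and Olfr16, Olfr78, Olfr109, Olfr821 and Olfr1393 in neither.

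Marks of active elements were nearly absent. H3K4me1, found at enhancers and around promoters, overlapped 1 receptor promoter in old and 9 in young cells, and H3K27ac, a mark of active promoters and enhancers mapped in young cells only, overlapped 1. Among other genes the shares were 24.8% for H3K4me1 in old, 41.4% in young and 37.1% for H3K27ac. Among other genes with as few CpGs they were 2.4%, 4.96% and 2.42%. For the 477 of these without a count they were 0%, 1.26% and 0%. Near absence of these marks was therefore not particular to receptors. Vmn2r1 was the receptor with H3K4me1 in both ages. The other 8 with H3K4me1 in young cells were Olfr94, Olfr95, Olfr215, Olfr385, Olfr393, Olfr1329, Olfr1347 and Vmn1r11. The receptor with H3K27ac was Vmn2r29, on chromosome 7 (chr7:7165707-7231000), under a peak at chr7:7230479-7230979 next to its start, and its nearest other gene, Zfp772, lay 2998 bp away.

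Receptor promoters were highly methylated at both ages, and their median differed little between old and young cells. Calls at CpGs with at least 5 reads in both libraries were pooled, and a value was given where a promoter had at least 3 such CpGs, which 925 of 1413 receptors had. The median was 77.0% in old and 78.4% in young cells, and the median difference per gene, old minus young, was -0.81 percentage points with quartiles of -8.75 and 7.04. Over all 15131063 autosomal CpGs measured, methylation was 66.8% in old and 63.5% in young cells at mean coverages of 24.5 and 23.9 reads. Promoters of other genes had medians of 9.75% in old and 10.1% in young cells, and those with as few CpGs 77.9% and 77.5%. Receptor gene spans had medians of 77.5% in old and 78.4% in young cells over 1099 genes. By family the promoter medians were 78.3% in old and 78.8% in young cells for Olfr, 72.3% and 70.0% for Vmn1r, and 68.4% and 77.0% for Vmn2r with 39 genes. The median differences per gene, old minus young, were -0.68, -2.84 and -1.67 percentage points in the same order. The gaps between family medians thus do not give the typical change per gene. With 1 library per age the spread between animals is unknown.

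Around annotated Olfr starts methylation was flat, at 72.3% in old and 74.7% in young cells in the 500 bp before the start and 77.2% and 76.9% in the 500 bp after it. At 9500 to 10000 bp before the start it was 76.8% in old and 75.1% in young cells. Other genes dipped at the start, to 9.1% in old and 8.26% in young cells just before it. Vmn2r genes had a shallower dip, to 52.2% in old and 51.3% in young cells. Most Olfr and Vmn1r models begin at the start codon, so their annotated starts and those of other genes are not like positions. Vmn2r29 held 64 of the 249 CpGs measured in Vmn2r promoters. The pooled Vmn2r promoter level was 59.3% in old and 56.2% in young cells with Vmn2r29, and 71.9% and 74.1% without it.

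**Figure D3:**
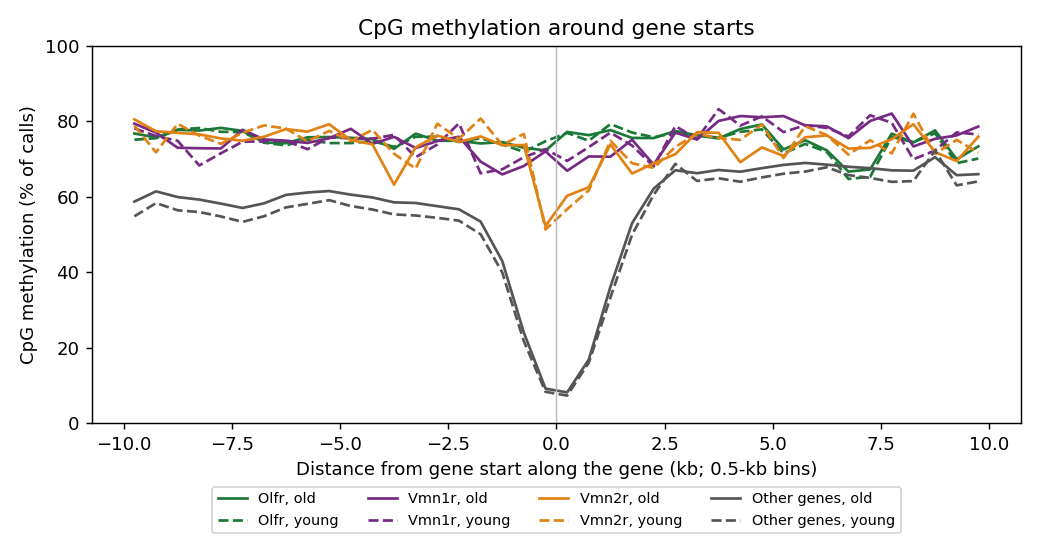
CpG methylation (% of calls) in 0.5-kb bins by distance (kb) from the gene start, in old (solid) and young (dashed) cells, for Olfr, Vmn1r, Vmn2r and other genes. Olfr and Vmn1r lines cross the annotated start, for most the start codon, without a comparable dip. Just before the start Vmn2r genes are at 52.2% and other genes at 9.1% in old cells.

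A promoter was called changed where Fisher's exact test on the pooled calls gave an adjusted p under 0.05 (Benjamini-Hochberg over 20560 genes) and the difference was at least 10 percentage points. The test compares the 2 libraries, not the ages, and CpGs on 1 read are not independent, so its p-values are too small. Of the 925 receptors, 130 were called lower in old cells, against a background of 5% of all genes, and 98 higher, against 3.89%. Together 228 (24.6%) were called, against 8.89% of all genes. Among other genes with as few CpGs 733 of 3059 (24.0%) were called, a share close to that of the receptors, so that calls at this rate were not particular to receptor promoters. The share was 24.9% in Olfr, 23.3% in Vmn1r and 23.1% in Vmn2r genes. Calls in the 2 directions were near even at promoters without H3K27me3, 76 lower and 73 higher of 593. At promoters marked in both ages 23 were lower and 10 higher of 142, at those marked in old cells only 11 and 2 of 64, and at those marked in young cells only 20 and 13 of 126. Other genes with as few CpGs also had more lower than higher calls, 401 against 332. Their calls were not split by mark, so whether the lean is particular to marked receptors was not tested. Of the 26 clusters with at least 10 measured promoters, 14 had a lower median in old cells and 12 a higher one. The median of the differences per gene was below 0 in 17 and above 0 in 8.

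The largest losses and gains among called promoters with at least 5 CpGs rested on few calls, and intervals are exact binomial 95% intervals that cover counting error only. Olfr97 had 47.8% methylation in old cells (35.7 to 60.2, 69 calls at 5 CpGs), against 91.1% in young cells (82.6 to 96.4, 79 calls). Vmn1r40 had 58.9% in old and 90.7% in young cells, Olfr1442 48.8% and 79.5%, Olfr676 57.3% and 85.9%, and Vmn1r237 42.3% and 68.1%. Of these promoters Olfr570 gained most, with 91.2% in old cells (86.3 to 94.8, 194 calls at 7 CpGs), against 50.9% in young cells (41.1 to 60.7, 108 calls). Olfr1107 had 95.7% in old and 61.8% in young cells, Vmn1r194 73.2% and 39.6%, Olfr267 89.7% and 56.7%, and Olfr1231 93.6% and 60.8%. H3K27me3 in at least 1 age lay over the 5 losses and over Olfr570, Olfr267 and Vmn1r194 among the gains. It lay over 398 of all 1413 receptors (28.2%), but these include promoters with too few CpGs for a value, which were seldom marked. Of the 925 measured, 593 were marked in neither age. With 5 to 9 measured CpGs 24.1% were marked in old and 31.2% in young cells. Whether the named losses and gains differ in mark from promoters with as many CpGs was not tested. Neighbours in 1 region moved in different directions. In the marked chromosome 1 cluster Olfr12 had 47.0% in old and 72.7% in young cells, whereas Olfr1411 had 78.2% in old and 57.6% in young cells.

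**Figure D4:**
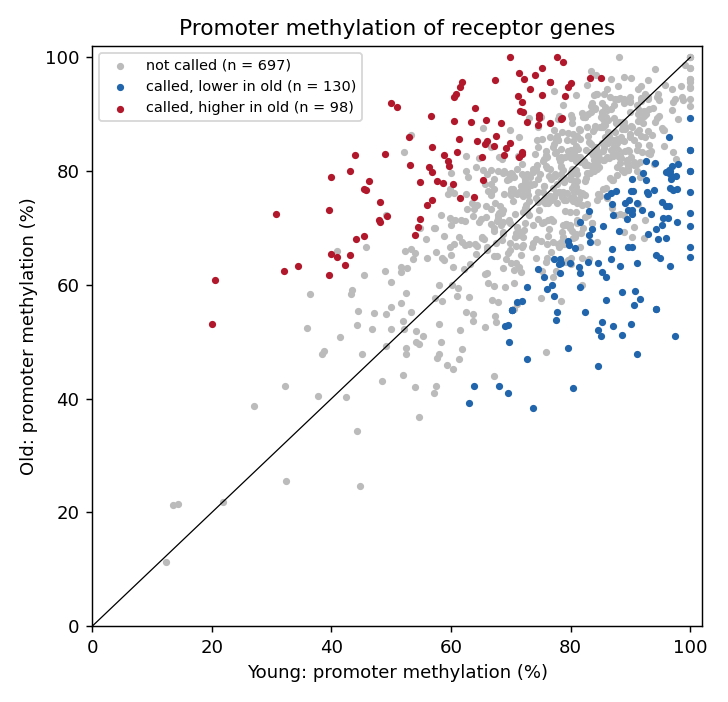
Promoter methylation (%) of the 925 measured receptor genes in old (vertical axis) and young (horizontal axis) cells, 1 library each, with the line of equal values. Blue points are the 130 called lower and red points the 98 called higher in old cells, and 4 promoters lie below 30% in both ages.

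Low methylation was rare. In old cells 42 receptor promoters lay below 50% and in young cells 55, and 4 lay below 30% in both ages: Olfr95, Olfr94, Olfr658 and Vmn1r113, the last with 3 CpGs. Olfr95 had 11.3% in old cells (9.65 to 13.0, 1404 calls at 29 CpGs) and 12.3% in young cells (10.7 to 14.1, 1534 calls). Olfr94, its neighbour on chromosome 17 and 705 bp from Ubd, had 21.8% in old and 21.9% in young cells at 28 CpGs. Both overlapped H3K27me3 in both ages, in 1 region of 39000 bp in old cells (chr17:37328001-37367000) and of 53000 bp in young cells (chr17:37313001-37366000), and both had H3K4me1 in young cells. The Olfr97 promoter, also in this cluster, was marked in both ages by a separate region. Olfr658 had 21.3% in old cells (18.3 to 24.5) and 13.6% in young cells (11.4 to 16.0) at 24 CpGs and no H3K27me3 in either list. Olfr15 had 62.8% in old cells (57.3 to 68.1, 15 CpGs) and 74.6% in young cells (70.0 to 78.7), and was called lower.

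RNA from receptor loci was sparse, and most of it came from 1 library. The 3 old libraries, of 26670334, 33562822 and 23559908 gene counts, had at least 1 count at 104 (7.36%), 214 (15.1%) and 95 (6.72%) receptors. The shallower young library (6377619 gene counts) had 605 (42.8%) and the deeper young library (12892123) 134 (9.48%). Receptors took 44.7, 85.3 and 29.8 CPM (counts scaled to library size) in the old libraries, against 1894 CPM in the shallower young library and 143 CPM in the deeper one. The shallower young library thus stood far above the other 4, which ranged from 29.8 to 143 CPM. That library also detected more of the other genes, 86.5%, against 75% to 79.4% in the rest. Among genes without a count in the other 4 libraries it detected 386 of 992 receptors (38.9%) and 1086 of 2116 other genes (51.3%). Of all receptors 807 had a count in some library, 421 without the shallower young library, and 606 had none. A gene without a count in a library could still reach 3 counts there, which is 0.0894 to 0.127 CPM in the old libraries, 0.47 CPM in the shallower young library and 0.233 CPM in the deeper one. Fewer cells carrying a transcript and less of it per cell cannot be told apart in these pools.

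**Figure D5:**
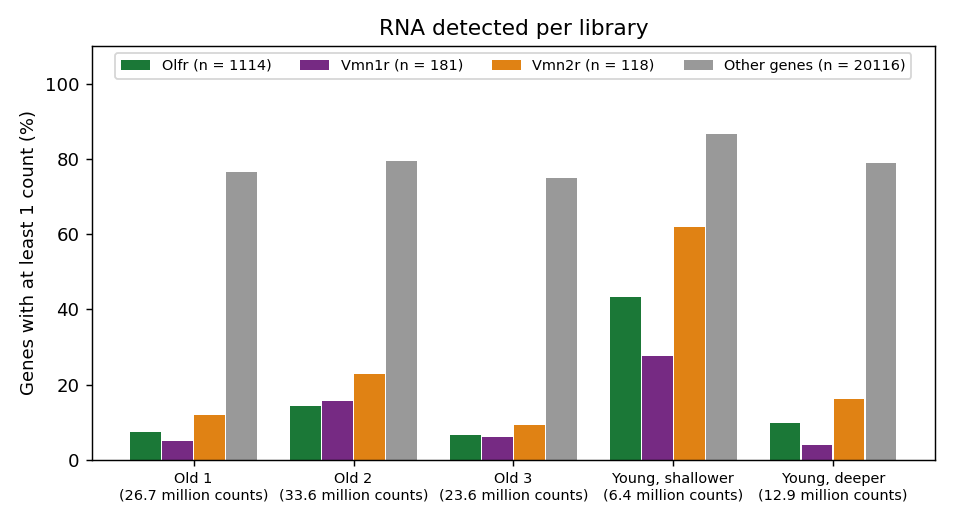
Share of genes (%) with at least 1 count in each RNA library, for Olfr, Vmn1r, Vmn2r and other genes, with the total gene counts under each library. The shallower young library detects 43.3% of Olfr genes although it has the fewest counts, and the other 4 libraries detect 6.55% to 14.3%.

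Markers of other cell types moved with age in the same libraries. Of all genes tested for RNA, 3.17% were called higher and 7.93% lower in old cells. Summed β-cell markers were 329300 to 388600 CPM in old and 332000 and 274900 CPM in young libraries, shallower first. Nearly all of that sum was insulin RNA (Ins1 and Ins2), and 2 of the 6 markers, Slc2a2 and Iapp, were higher in old cells. The 4 stromal markers summed to 5.09 to 8.29 CPM in old and 199 and 3157 CPM in young libraries and were all lower in old cells, as were 4 of 4 tested acinar markers and 4 of 4 endothelial markers. Of 3 markers each, 3 δ- and PP-cell, 2 duct, 1 α-cell and 1 immune marker were lower in old cells. Their sums were 125 to 238 CPM in old and 2572 and 7549 CPM in young libraries for δ and PP cells, 69.2 to 94.8 and 275 and 234 CPM for duct, 683 to 1454 and 1780 and 32680 CPM for α cells, and 14.9 to 28.4 and 87 and 225 CPM for immune cells. Markers of olfactory and vomeronasal sensory neurons (Omp, Gng8, Stoml3, Cnga2, Trpc2) summed to 13.2 to 19.4 CPM in old and 43.6 and 13.7 CPM in young libraries. Trpc2 made most of this sum in every library, with 322, 613 and 266 counts in old and 206 and 143 in young libraries, shallower first. Omp had 30, 37 and 93 counts in old and 26 and 26 in young libraries. Neither was called (edgeR quasi-likelihood adjusted p = 0.598 for Trpc2 and 0.865 for Omp). Gng8, Stoml3 and Cnga2 had no count in any old library. They had 7, 37 and 2 counts in the shallower and 7, 0 and 0 in the deeper young library. The part of these cells and of the shallower library in the receptor RNA was not tested.

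Of the 1413 receptors, 59 passed the count filter for edgeR's quasi-likelihood test, which was run over 15544 genes. A receptor with counts at 1 age only passes that filter through that age, so the calls describe single genes and not the families. Of these 59, 1 was called higher in old cells, against a background of 3.17% of all genes tested, and 9 lower, against 7.93%.

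Olfr330 (chr11:58342431-58348327, minus strand) was the receptor called higher in old cells. It had 111, 526 and 105 counts in the old libraries and none in either young library. The groups did not overlap, and the level pooled over the old libraries was at least 56.9-fold higher than 3 counts over the pooled young libraries. Without the 16-month library, which held 526 of its 742 counts, the limit was 27.6-fold. Its log2 change was 10.41 (SE 1.95, edgeR quasi-likelihood adjusted p = 0.0234). It had no H3K27me3 in either age, and its promoter, with 3 CpGs measured, was at 83.6% methylation in old and 100% in young cells. When any 1 of the old libraries was left out, its log2 change was 9.28 to 10.67 and it was no longer called (edgeR quasi-likelihood adjusted p = 0.0634 to 0.0763).

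Olfr373 (chr8:74623661-74624605, plus strand) had no count in any old library, against 288 in the shallower and 38 in the deeper young library. Taking 3 counts over the pooled old libraries, the old level was at least 473-fold lower than the young one. The limit rested mostly on the shallower young library and was 82.3-fold without it and 1261-fold without the deeper one. The log2 change was -11.84 (SE 1.84, edgeR quasi-likelihood adjusted p = 0.0191), and -9.02 without that library. Olfr571, near Olfr570, had 1, 0 and 0 counts in old and 107 and 12 in young libraries, shallower first. Olfr116 had none in old and 41 and 23 in young libraries, and Vmn2r58 none in old and 32 and 23. Olfr348 had 0, 0 and 1 in old and 41 and 22 in young libraries. Each of the 9 genes called lower was thus at 0 or 1 count in every old library. The remaining 4 were Olfr538 with 28 and 22 counts in the young libraries, Olfr578 with 9 and 56, Olfr1396 with 17 and 21 and Olfr59 with 22 and 19. Olfr1396 overlaps Olfr56, so its counts are uncertain. Over the 9, the adjusted p ranged from 0.0191 for Olfr373 to 0.0493 for Olfr59 by edgeR's quasi-likelihood test. With 1 old library left out, the call that remained was that of Olfr373 without the 16-month library. Without the shallower young library Olfr373 and Olfr578 were still called. Olfr571 no longer passed the count filter, and the other 6 no longer passed the test. Without the deeper one Olfr1396 was no longer called and Olfr578 no longer passed the count filter. Of the 9, those with a called change of promoter methylation were Vmn2r58, with 76.9% in old and 97.8% in young cells, and Olfr116, with 94.4% in old and 73.2% in young cells. These values rested on 4 CpGs at Vmn2r58 and 5 at Olfr116. Of the 925 measured receptors 24.6% had such a call, so calls at this rate were not particular to the 9. The RNA was lower in old cells at both genes, while methylation was lower in old cells at Vmn2r58 and higher at Olfr116.

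The receptors with the highest mean CPM were mostly seen in 1 library. Olfr517 had 391 counts, Olfr519 239 and Olfr521 206 in the shallower young library and none in the other 4. Olfr90 had 0, 2 and 1 counts in old libraries and 295 and 0 in young libraries, shallower first. Olfr315 had 5, 0 and 1 in old and 211 and 0 in young libraries, Olfr1448 0, 24 and 0 in old and 352 and 0 in young libraries. Olfr372 had 0, 21 and 1 in old and 175 and 0 in young libraries, and Olfr1412 15, 0 and 0 in old and 171 and 0 in young libraries. None of the last 3 was called (edgeR quasi-likelihood adjusted p = 0.0987, 0.133 and 0.14), and each changed sign without the shallower young library.

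Receptors with RNA in all 5 libraries numbered 5: Vmn2r29, Olfr99, Olfr920, Vmn2r1 and Vmn2r57. Vmn2r29, the receptor with H3K27ac, had 9.22, 5.3 and 5.65 CPM in old libraries and 22.1 and 2.09 CPM in young libraries, shallower first. The groups overlapped, with a log2 change of -0.70 (SE 0.92, edgeR quasi-likelihood adjusted p = 0.655). Its promoter had the most CpGs among the receptors described here, 64, at 52.2% methylation in old and 46.7% in young cells. Olfr99 had 20, 42 and 18 counts in old and 42 and 46 in young libraries, with a log2 change of -2.30 (SE 1.04, edgeR quasi-likelihood adjusted p = 0.18). Olfr920 had 26, 42 and 3 in old and 1 and 22 in young libraries. Vmn2r1 had 6, 16 and 2 in old and 2 and 2 in young libraries, and Vmn2r57 12, 2 and 9 in old and 2 and 1 in young libraries.

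Receptors known from tissues outside the nose ranged from no count in any library to over 200 counts in 1. Olfr15, described in β cells, Olfr544, described in pancreatic α cells, Olfr1393, described in the kidney, and Olfr821 had no count in any library. Olfr16, known from sperm, had 6 counts and Olfr109, described in islets, 5 in the shallower young library and none elsewhere. Olfr78, an oxygen- and metabolite-responsive receptor of the carotid body and kidney vessels, had 0, 3 and 0 counts in old and 0 and 215 in young libraries, shallower first. It overlaps Olfr560, so its counts are uncertain. Olfr558, a receptor of vascular smooth muscle, had 78, 16 and 0 in old and 58 and 47 in young libraries, with a log2 change of -2.38 (SE 1.64, edgeR quasi-likelihood adjusted p = 0.37). Olfr78 fell to 72.4% promoter methylation in old cells, against 90.3% in young cells, and was called lower.

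Genes that act with the receptors were measured in the same fit, in which 3.17% of all genes tested were called higher and 7.93% lower in old cells. Of 15 olfactory and vomeronasal signalling genes 9 were tested and 1 passed. It was Ric8b, an exchange factor for the olfactory G protein, at 65.2, 66.2 and 57.1 CPM in old and 25.6 and 36.3 CPM in young libraries, with a log2 change of 1.17 (SE 0.31, edgeR quasi-likelihood adjusted p = 0.047). Of 8 genes of receptor choice in olfactory neurons 6 were tested and 2 were lower. Ebf1 had 0.238 to 0.562 CPM in old and 0.627 and 51 CPM in young libraries, so the young mean rested on the deeper library. Ebf2 had 0, 1 and 0 counts in old and 14 and 32 in young libraries. Lhx2, a homeodomain factor of receptor enhancers, had at most 6 counts in a library. Of 16 repressive chromatin genes all were tested and 2 were lower, the H3K9 methyltransferase Ehmt2 (log2 change -1.07, SE 0.27, edgeR quasi-likelihood adjusted p = 0.0452) and the H4K20 methyltransferase Suv420h2 (log2 change -2.37, SE 0.43, edgeR quasi-likelihood adjusted p = 0.0171). Ric8b and Ehmt2 lay close to the threshold of 0.05. Results with a library left out are not given for the genes in these lists.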

How the data were processed

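RNA was deposited by the authors as whole-number read counts per RefSeq transcript (5 libraries), and each gene was represented by its most counted transcript. For the counting tool and use of strand nothing is given in the sources used. Per the submitters' processing notes the build was mm9 and the tools, listed without roles, included STAR, Bowtie 0.12.7, HOMER, edgeR and CASAVA 1.8.2. The deposited FPKM signal table served only for names and positions, since its columns for the 17-month and the shallower young library are identical (100% of entries). The columns of the 2 young libraries carry no replicate number, so they are called shallower and deeper. HOMER called the deposited H3K4me1 and H3K27ac peaks, per the file headers, from 1 library and its input with limits of 0.01 on the false discovery rate and 2-fold on enrichment. The deposited H3K27me3 lists have no header. Their score is the authors' and only ranked regions, and their other, unlabelled column was not interpreted. CpG methylation was deposited as a fraction with coverage, the count of calls per CpG. Its filters were not given.

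Methylated calls were the deposited fraction times coverage. A promoter or span overlapping a region by at least 1 bp was marked. The RNA test was edgeR 4.0.16 (R 4.3.3; quasi-likelihood, TMM, filterByExpr, Benjamini-Hochberg over all genes tested, threshold 0.05), and DESeq2 1.42.0 was an alternative. Other steps used Python 3.11.15, pandas 2.3.3 and scipy 1.17.1. Both tests were run on simulated data, with RNA changes placed in better counted genes only and with independent methylation calls. Those runs do not show how the tests perform at sparse receptors or with 1 library per age. Pools are separate samples per the labels, and p-values measure only the spread between them. Receptors with near-identical copies may share reads, so their counts are uncertain.

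The receptor genes and all gene lists were chosen with earlier results of these data known. Receptors were named by these rules: every RNA call, the 10 highest mean CPM, the 5 largest losses and 5 largest gains of methylation with at least 5 CpGs, the 5 lowest methylation values, the best scored H3K27me3 promoters, every receptor with H3K27ac, those in all 5 libraries and 10 fixed receptors. Those with H3K4me1, Olfr99, Olfr920, Vmn2r57, Vmn1r113 and the clusters singled out were chosen after their values were seen. Alternatives were other normalizations, filters, windows, read and CpG minimums, score limits and left-out libraries.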

Additional observations from a re-analysis of the deposited data

How the results depend on the processing

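RNA calls among receptors depended on the libraries used. The 10 calls (1 higher, 9 lower in old cells) became 0 to 1 without 1 old library (0 higher, 0 to 1 lower), and 11 without the shallower young library against 151 without the deeper one (150 lower). They became 43 without the count filter (42 lower) and 66 with DESeq2 (65 lower). These counts had different bases. In the main setting 59 receptors were tested, and 29 to 45 without 1 old library. Without the shallower young library 97 were tested, without the deeper one 253, and without the filter or with DESeq2 807. Each exclusion of a young library left 1 in that group, so its count is descriptive only. The 11 calls were largely other receptors, since of the 9 lower calls only Olfr373 and Olfr578 remained. Without the shallower young library the log2 change turned positive for Olfr1448 (5.57), Vmn2r29 (1.84), Olfr372 (5.48), Olfr1412 (5.20) and Vmn2r-ps54 (7.36), and without the deeper one it was -7.54, -1.57, -6.69, -7.02 and -3.93 in the same order. That first exclusion, chosen for detection after seeing the data, left 421 receptors with any count. Limits of fold with a library left out, and the totals without the chromosome 11 cluster, were also chosen after seeing the data. With at least 3 counts the receptors detected were 51, 123 and 44 in the old libraries and 73 in the deeper young library. With at least 10 counts they were 25, 61 and 14 in old, 248 in the shallower and 36 in the deeper young library. At 0.1 CPM they were 51, 103 and 44 in old libraries. The shallower young library stayed highest under each minimum.

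With regions above the median score of their list, H3K27me3 lay over 137 receptor promoters in old and 175 in young cells, and over 144 and 173 gene spans. With as many top regions from each list the promoters were 208 in old and 323 in young cells. Fewer were marked in old cells under every alternative run for promoters and spans, but not by marked length of clusters.

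Median promoter methylation was 74.9% in old and 76.1% in young cells with 1 mean per cluster, 78.3% in old cells at 10 reads and 78.6% at 5 CpGs. At 10 CpGs it was 80.4% in old and 80.2% in young cells, and span methylation 78.7% in old cells. In young cells it was 79.8% in a window of 500 bp on each side and 77.2% from 2000 bp before to 1000 bp after the start. Calls were 130 lower and 98 higher of 925 in the main setting. They fell to 78 and 58 of 595 at 10 reads, 73 and 59 of 557 at 5 CpGs and 16 and 11 of 150 at 10 CpGs. Fewer promoters were measured at these minimums, so the falls in number are not falls in share of that size. At a difference of 20 points they were 61 and 60 of 925.

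No paired analysis was possible because the columns of the young RNA libraries carry no replicate number. The number of receptors detected did not follow depth, since the shallowest library detected the most. For methylation, 488 receptors had too few covered CpGs for a promoter value. With 1 library per age, methylation and histone marks have no replicate error. The causes of these changes were not tested.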
